A study of Mus musculus with 9 samples.

Results

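Gene expression in the mouse olfactory bulb was compared between mice taken 120 min and mice taken 30 min after the onset of an odor. The comparison used 6 of the 9 samples of the study, and 12780 of its 27497 genes, those that averaged 1 RPKM or more (reads scaled by gene length and library size) over all 9 libraries. The study asked which transcripts respond, and how quickly, to activity of neurons in vivo, and it sequenced polyadenylated RNA of the bulb, the first relay of smell in the brain. All mice were adult C57/BL6 animals, aged 6 to 8 weeks or older, with no genetic change given. The 30 min group held 3 mice taken directly at the end of 30 min in a mixture of odorants. The 120 min group held 3 other mice that breathed the same mixture for 30 min and then clean air for 90 min. A further 3 mice, kept in carbon-filtered clean air throughout, gave the unstimulated level and entered the fit so that all groups shared 1 estimate of the spread. Different mice were killed at each time, so the comparison is between animals and follows none over time. The labels name the odorants only as a mixture and do not say how long the unstimulated mice were kept in clean air.

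Neurons answer synaptic input by transcribing immediate-early genes, which need no new protein for their induction. Many of these genes are short and encode mRNAs that are degraded quickly, so that their level drops soon after the stimulus ends. Some encode transcription factors, others act directly at synapses or on signalling, and a later set of effector genes follows them. In the olfactory bulb, odors drive such genes in mitral, tufted and granule cells. In RNA from a whole bulb, fewer cells expressing a gene and less RNA per cell cannot be told apart.

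The depth of the 6 libraries, recovered from the steps between RPKM values of short RNAs, ranged from 7.15 to 28.8 megareads, with 3 counts of a 1 kb transcript worth 0.104 to 0.419 RPKM. The shallowest library was 120 min mouse 3. The libraries of the 30 min and 120 min groups correlated with each other at 0.95 to 0.98 (Pearson, across genes, which are not independent replicates). Markers of mitral and tufted cells, granule and other inhibitory interneurons, dopaminergic cells, astrocytes, oligodendrocytes and microglia were all detected, as were the sensory axons' Omp transcripts. The median log2 change over all genes tested was -0.03.

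During the 90 min of clean air, 10 genes fell and no gene rose past the threshold. The 10 are 0.0782% of the genes tested (limma, Benjamini-Hochberg adjusted p under 0.05), and for higher genes the share was 0%. They were Npas4, Fos, Junb, Egr1, Egr4, Ier2, Btg2, Arc, Dusp1 and Cyr61. At an unadjusted p under 0.05, limma gave 254 lower (1.99%) and 176 higher genes (1.38%), 430 together (3.36%), where 639 would be expected by chance alone. With libraries weighted by their own spread, 1 higher gene passed, Ccrn4l.

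**Figure D1:**
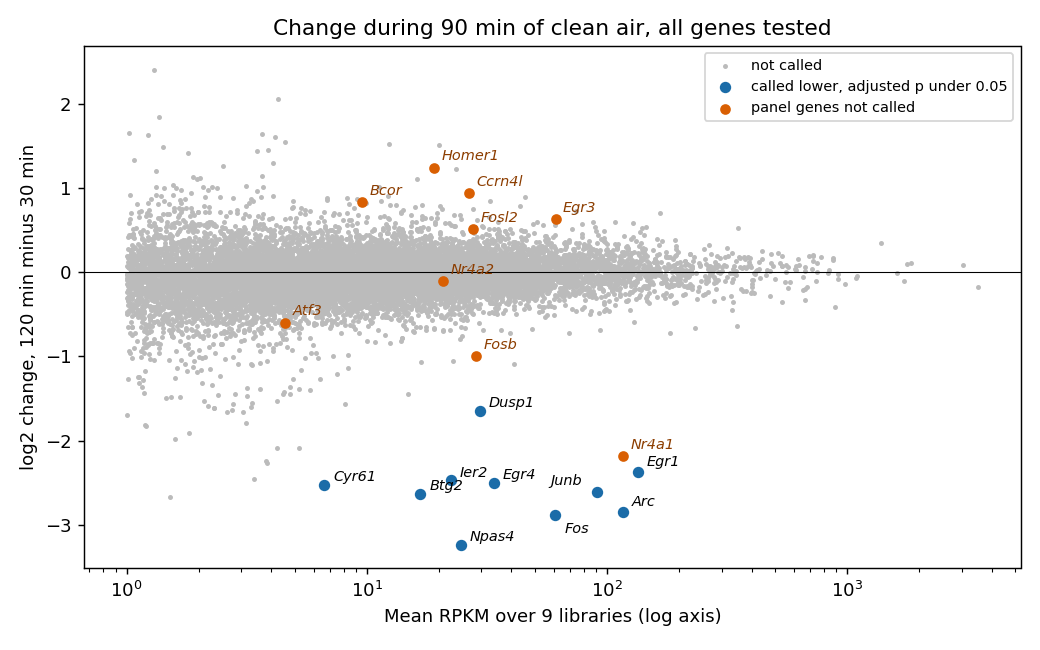
Log2 change from 30 min to 120 min (vertical axis) against the mean RPKM over the 9 libraries (horizontal log axis), with 1 point for each of the 12780 genes. The 10 genes called lower (blue) lie between -1.65 and -3.23, and the labelled panel genes that were not called (orange) lie between -2.18 (Nr4a1) and 1.24 (Homer1).

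Among the transcription factors, Npas4 fell most. Npas4 encodes a factor that neurons switch on in response to calcium entry. Its level was 66.1, 53.7 and 62.9 RPKM in the 30 min mice and 7.02, 6.31 and 4.88 RPKM in the 120 min mice, a 9.40-fold drop (log2 change -3.23 ± 0.20 SE, adjusted p = 6.25e-05). The clean air mice stood at 5.52, 7.21 and 8.30 RPKM, so that the 120 min values overlapped the unstimulated ones.

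Fos, which forms AP-1 with Jun proteins and is a common marker of active neurons, was at 171, 131 and 164 RPKM at 30 min. At 120 min it was at 20.2, 17.2 and 25.01 RPKM, 7.35-fold lower (log2 change -2.88 ± 0.33, adjusted p = 0.0055). All 3 values at 120 min were still above the clean air mice, which had 4.73, 4.04 and 12.1 RPKM. Junb, a partner of Fos in AP-1, fell 6.09-fold, from 227, 171 and 222 RPKM to 31.1, 37.1 and 31.8 RPKM (log2 change -2.61 ± 0.22, adjusted p = 6.95e-04). Its clean air values of 22.3, 35.6 and 39.9 RPKM enclosed those at 120 min.

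Egr1, a zinc finger factor, was the most abundant of the 10 at 30 min, with 294, 306 and 320 RPKM. It had 58.2, 56.5 and 62.7 RPKM at 120 min, a 5.16-fold fall (log2 change -2.37 ± 0.35, adjusted p = 0.0489). The clean air mice had 21.2, 22.3 and 67.5 RPKM, so that clean air mouse 3 alone lay above the 120 min mice. Its relative Egr4 fell 5.67-fold, from 98.0, 56.5 and 83.1 RPKM to 12.5, 11.5 and 16.1 RPKM (log2 change -2.50 ± 0.26, adjusted p = 0.00344). For Egr4 every 120 min mouse lay above every clean air mouse, which had 6.07, 10.7 and 10.4 RPKM.

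Ier2 encodes a small nuclear protein that growth factors induce. It went from 49.2, 31.6 and 66.3 RPKM to 8.99, 8.19 and 7.07 RPKM, 5.55-fold lower (log2 change -2.47 ± 0.28, adjusted p = 0.00524). The 30 min mice differed among themselves more than for most of the 10, and none came near the 120 min mice. Btg2, an antiproliferative protein that also recruits the enzymes that shorten poly(A) tails, fell 6.19-fold, from 41.0, 33.2 and 42.4 RPKM to 5.72, 6.47 and 5.33 RPKM (log2 change -2.63 ± 0.17, adjusted p = 6.25e-05). Its level in clean air was 5.47, 4.86 and 6.06 RPKM, overlapping the 120 min mice.

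The other 3 genes act outside transcription. Arc, which forms capsid-like particles and promotes the removal of AMPA receptors from synapses, was at 247, 273 and 336 RPKM at 30 min and at 43.3, 39.5 and 34.8 RPKM at 120 min, 7.17-fold lower (log2 change -2.84 ± 0.29, adjusted p = 0.00344). The clean air mice ranged widely for Arc, at 15.1, 21.03 and 40.0 RPKM, and overlapped the 120 min group. Dusp1, a phosphatase that switches off MAP kinases, had the smallest fall of the 10, at 3.13-fold, from 65.2, 53.1 and 51.5 RPKM to 17.6, 18.3 and 17.0 RPKM (log2 change -1.65 ± 0.18, adjusted p = 0.00524). Cyr61, a secreted matrix protein also named Ccn1, was the least abundant, with 24.3, 7.10 and 15.3 RPKM at 30 min and 1.48, 2.71 and 1.97 RPKM at 120 min (log2 change -2.52 ± 0.37, 5.74-fold, adjusted p = 0.0477). The lowest 30 min mouse for Cyr61, mouse 2, was still above all mice of the later group.

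**Figure D2:**
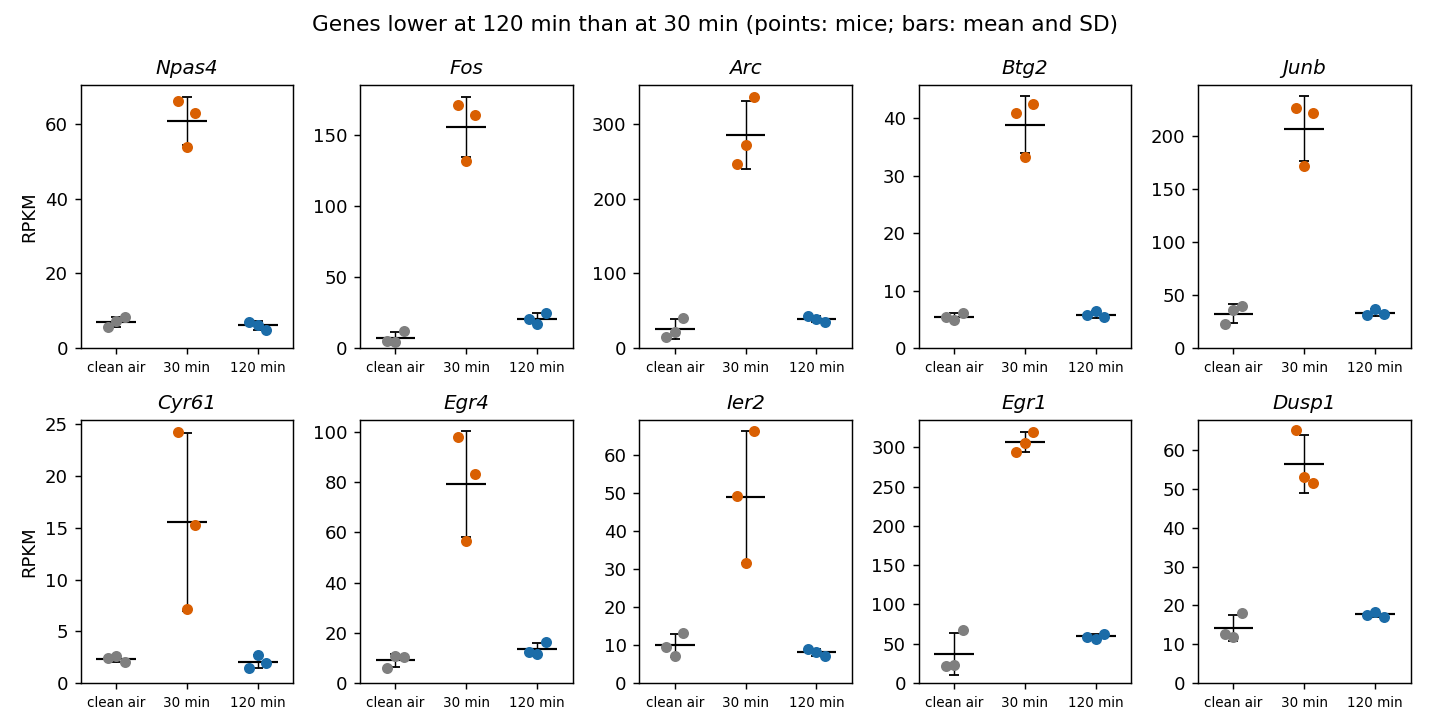
RPKM (vertical axes, linear and starting at 0) of the 10 genes called lower at 120 min, in the 3 mice each of clean air, 30 min and 120 min, with bars for the mean and SD. In every panel the 30 min points lie above all 120 min points, and in the panels of Egr4 and Fos the 120 min points also lie above all clean air points.

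At 120 min the 10 genes retained 9.96% (Npas4) to 31.2% (Dusp1) of their mean 30 min RPKM. Read as a steady exponential fall over the 90 min of clean air, the fitted changes correspond to a halving of the level every 27.8 min for Npas4 (26.3 to 29.6 min at 1 SE either way) and every 54.7 min for Dusp1 (49.2 to 61.5 min). Fos came to 31.3 min, Arc to 31.7 min, Btg2 to 34.2 min, Junb to 34.5 min and Egr1 to 38.0 min on the same reading. These are net rates between 2 times, with new transcription and mRNA breakdown together, and not mRNA half-lives. The unstimulated level was not subtracted, and from clean air to 30 min the log2 change was 3.04 for Npas4 and 1.97 for Dusp1. A gene back at its clean air level before 120 min would have fallen faster than its value states. The order of these values is therefore not an order of speed. Values at 120 min lay above every clean air mouse for 2 of the 10 genes (Egr4 and Fos) and overlapped clean air for the other 8. For Arc, Egr1 and Dusp1 this overlap came from clean air mouse 3 alone, and clean air mice 1 and 2 lay below all 120 min mice. The clean air values of Dusp1 were 12.7, 11.8 and 18.1 RPKM.

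Of the 10 calls, 7 (Npas4, Btg2, Junb, Arc, Egr4, Dusp1 and Fos) passed under each of the 19 alternative settings. Egr1 and Cyr61 lay close to the threshold and lost their call when most single mice were left out, and Ier2 lost it without 120 min mouse 3.

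The promoters of the called genes were examined because these genes moved together. RefSeq promoter windows, running from 250 bases before to 50 bases after the start (build GRCm38.p6), matched 7 of the 10 genes by symbol or identifier, 70% of them, and 9584 of the 12780 genes tested, or 75%. With fewer than 80% matched, a comparison of motif shares between these sets is void, so the counts and shares that follow describe the matched promoters and nothing is read from their difference. Each of the 7 windows held TGACG, the core of the cAMP response element bound by CREB, on 1 of the strands. This core is in 35.5% of the matched promoters of tested genes and in 20.8% of all 32851 RefSeq promoters of this length. The palindrome TGACGTCA, which contains the core, occurred in 2 of the 7 (Btg2 and Dusp1), in 3.54% of the matched promoters of tested genes and in 1.79% of all promoters. The AP-1 site TGANTCA, in 5.95% of the matched and 7.81% of all promoters, and the CArG box, the core of the serum response element and in 1.54% of the matched and 1.63% of all promoters, were each found in none of the 7 windows. These matches describe letters in a window and are no evidence of binding. Sites more than 250 bases upstream lie outside the windows, so an absence covers these windows only. The stretch around 1 match per gene follows, 5′ to 3′ on the gene's own strand, with the match in capitals, to show the bases around the core.

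Npas4, chr19:4990111-4990165, minus strand: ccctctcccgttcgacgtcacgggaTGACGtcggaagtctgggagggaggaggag
Btg2, chr1:134079289-134079346, minus strand: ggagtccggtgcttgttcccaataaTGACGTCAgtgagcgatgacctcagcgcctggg
Junb, chr8:84978825-84978879, minus strand: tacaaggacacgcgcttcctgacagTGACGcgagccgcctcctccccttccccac
Egr4, chr6:85513669-85513723, minus strand: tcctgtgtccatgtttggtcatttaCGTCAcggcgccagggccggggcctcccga
Dusp1, chr17:26508583-26508640, minus strand: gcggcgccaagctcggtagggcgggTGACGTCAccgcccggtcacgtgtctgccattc
Fos, chr12:85473799-85473853, plus strand: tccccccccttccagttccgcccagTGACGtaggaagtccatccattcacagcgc
Cyr61, chr3:145650014-145650068, minus strand: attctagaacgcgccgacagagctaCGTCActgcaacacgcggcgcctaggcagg

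The matches lie between 169 and 54 bases upstream of the annotated start, from Npas4 at -169 to -165 to Cyr61 at -58 to -54. The windows of Egr4 and Cyr61 are shown with CGTCA, the same core read from the opposite strand. Arc, Ier2 and Egr1 had no entry.

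By GENCODE M21, matched through the gene identifiers, their median span was 3720 bp with 2.5 exons, against 24702 bp and 9 exons over the tested genes with an entry. For Dusp1 the gene record, over all its annotated transcripts, spans 56539 bp, while its mRNA used here has 4 exons and 1990 nt. Whether the transcript measured in these mice covers that span was not tested. The AU-rich core ATTTA, a motif of mRNAs that are degraded quickly, was present in the 3′ UTR of 7 of the 10, or 70%, and of 70.0% of the 11686 tested genes with an annotated 3′ UTR. The share with the motif was the same in both. Its median density was 1.96 per kb of 3′ UTR in the called genes and 1.27 per kb in all of them, while the 10 largest differences upward, described further on, had 2.77 per kb and the motif in 9 of 10. The called genes with the most copies were Btg2 and Cyr61 with 5 each, then Fos and Dusp1 with 4 each, while Arc, Ier2 and Egr4 had none. Short stretches show how the copies cluster or overlap in these 4 mRNAs, with each ATTTA in capitals.

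Fos, from base 642 of the 3′ UTR: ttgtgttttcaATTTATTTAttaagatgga
Dusp1, from base 94 of the 3′ UTR: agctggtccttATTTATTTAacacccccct
Cyr61, from base 641 of the 3′ UTR: agagaATTTATTTAtaaaattaatcATTTA
Btg2, from base 1322 of the 3′ UTR: aaATTTAtttgtagatgtgtgcaatATTTA

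Close relatives of the genes that fell differed from them in their values. In the AP-1 list (Fos, Jun and their relatives, with Atf3), 2 of 9 tested members fell, Fos and Junb. The 30 min and 120 min values did not overlap for 4 lower members and 1 higher member, beside 5.66% lower and 4.99% higher over all genes tested. Fosb, a relative of Fos with a truncated form that is unusually stable as a protein, had 52.3, 54.9 and 55.2 RPKM at 30 min and 23.1, 29.3 and 28.6 RPKM at 120 min (log2 change -0.998 ± 0.28, adjusted p = 0.999). Every 120 min mouse was below every 30 min mouse for Fosb and above the clean air mice, which had at most 7.16 RPKM. Fosl2, another Fos relative, was at 31.5, 29.8 and 27.9 RPKM at 30 min and at 42.7, 42.5 and 42.6 RPKM at 120 min (log2 change 0.51 ± 0.25, adjusted p = 0.999). Its 3 mice at 120 min were nearly identical and each lay above the 30 min group. Atf3, a stress-induced factor that pairs with Jun proteins, had 8.71, 5.97 and 8.82 RPKM and then 5.47, 4.08 and 5.37 RPKM (log2 change -0.60 ± 0.22, adjusted p = 0.999).

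In the Egr list (Egr factors and their Nab corepressors), 2 of 5 tested members fell, Egr1 and Egr4, beside 0.0782% of all genes tested. Values of the 2 times did not overlap for 2 lower members and 1 higher member, beside 5.66% lower and 4.99% higher over all genes tested. Egr3, a factor of the same family, was instead at 69.2, 66.3 and 56.4 RPKM at 30 min and at 87.8, 103 and 108 RPKM at 120 min (log2 change 0.63 ± 0.24, adjusted p = 0.999). All 120 min mice lay above the 30 min mice for Egr3, and all of these above clean air, which had at most 26.6 RPKM.

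Of the 3 orphan nuclear receptors of the Nr4a family, none passed the threshold. Nr4a1 had 240, 278 and 249 RPKM at 30 min and 54.2, 54.0 and 59.6 RPKM at 120 min, a difference larger than that of the called gene Dusp1 (log2 change -2.18 ± 0.41, adjusted p = 0.244). Its clean air mice had 18.1, 22.9 and 75.5 RPKM, and that spread entered its error. With the 6 libraries of the 2 times alone the adjusted p was 0.000266, without clean air mouse 3 it was 0.000116, and with library weights it was 0.0141. Nr4a2, which dopaminergic neurons need, stood at 27.6, 29.4 and 25.98 RPKM and then 20.8, 26.2 and 31.1 RPKM (log2 change -0.10 ± 0.18, adjusted p = 0.999). Nr4a3 stood at 7.48, 10.9 and 7.45 RPKM and then 9.49, 7.86 and 8.37 RPKM (log2 change 0.01 ± 0.22, adjusted p = 0.999). Both overlapped between the times, and at 120 min both lay above all clean air mice, whose highest values were 9.85 RPKM for Nr4a2 and 2.39 RPKM for Nr4a3.

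Apart from the effect of the 0.5 added to each RPKM, the ratio of 2 relatives within each mouse does not depend on the scaling of a library. This ratio was higher in every 120 min mouse than in any 30 min mouse for the 6 pairs computed. The log2 ratio of Fosb to Fos was -1.50 ± 0.23 (SD, n = 3) at 30 min and 0.38 ± 0.33 at 120 min, a difference of 1.88. The mean log2 ratio differed by 3.39 for Fosl2 to Fos, 3.00 for Egr3 to Egr1, 3.14 for Egr3 to Egr4, 2.08 for Nr4a2 to Nr4a1 and 2.20 for Nr4a3 to Nr4a1. For each pair a two-sided exact permutation test gave p = 0.1, the smallest that 3 mice against 3 allow, also after adjustment over the 6 pairs. The pairs share genes and were chosen with earlier results of these data known. In each pair the second gene was the one with the larger drop between these same 2 times. The separation and the p-values therefore support nothing further.

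**Figure D3:**
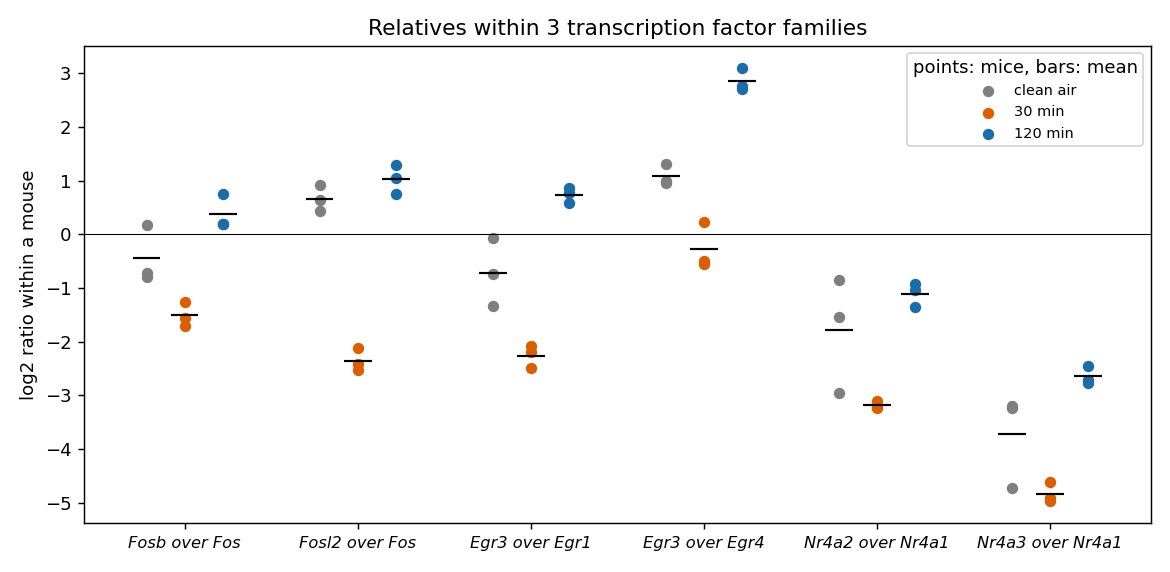
Log2 ratio of 2 relatives within each mouse (vertical axis) for 6 pairs of transcription factor genes, with 1 point per mouse and a bar for the mean of 3 mice in clean air (grey), at 30 min (orange) and at 120 min (blue). In each pair all 120 min points lie above all 30 min points, with differences of the mean between 1.88 (Fosb over Fos) and 3.39 (Fosl2 over Fos).

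No gene passed the threshold upward, so the genes that were higher at 120 min are given by their values. The 10 largest differences were taken from genes averaging at least 5 RPKM with no overlap between the groups. They were Dhrs13, Homer1, Ccrn4l, Banp, the gene listed as arg1, Sox18, Ccdc109b, Bcor, Nfatc1 and Slc11a2. Since the choice required that the groups do not overlap, their separation supports nothing further.

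Ccrn4l, the gene of nocturnin, a phosphatase of metabolic cofactors once described as a deadenylase, came closest to the threshold. It had 23.7, 22.2 and 18.2 RPKM at 30 min and 39.3, 37.9 and 46.6 RPKM at 120 min (log2 change 0.94 ± 0.16, 1.91-fold, adjusted p = 0.147). The clean air mice had 17.5, 19.3 and 16.2 RPKM, below all of the 120 min mice. Against clean air the log2 change at 120 min was 1.199 ± 0.16 (adjusted p = 0.0262, in a comparison that called 0.0861% of the genes). Bcor, a corepressor that works with BCL6 and Polycomb proteins, had 8.97, 7.71 and 7.26 RPKM and then 13.3, 13.4 and 17.1 RPKM (log2 change 0.83 ± 0.17, adjusted p = 0.384). Bcor was at 5.99, 6.01 and 6.18 RPKM in clean air, and 1.196 ± 0.17 higher at 120 min on the log2 scale (adjusted p = 0.0268).

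Homer1 encodes a scaffold of the postsynaptic density, and activity induces a short form of it that uncouples the scaffold. Its level was 12.3, 17.4 and 10.7 RPKM at 30 min and 29.2, 44.5 and 24.98 RPKM at 120 min (log2 change 1.24 ± 0.34, 2.37-fold, adjusted p = 0.999). At 30 min it overlapped clean air, where it had 12.3, 14.4 and 5.55 RPKM. The table has 1 value per gene, so the short and long forms cannot be told apart. Nfatc1, a calcium-regulated transcription factor, had 7.44, 6.66 and 6.19 RPKM and then 13.1, 9.70 and 14.5 RPKM (log2 change 0.82 ± 0.24, adjusted p = 0.999). Ccdc109b, now named Mcub, which dampens calcium uptake by mitochondria, was at 5.31, 6.13 and 4.26 RPKM and then at 9.81, 9.74 and 9.96 RPKM (log2 change 0.86 ± 0.23, adjusted p = 0.999). The row listed as arg1 carries the identifier of Tinagl1, a matrix protein, and not of arginase, and it had 8.60, 4.60 and 5.42 RPKM and then 12.3, 9.16 and 13.4 RPKM (log2 change 0.88 ± 0.27).

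At 120 min, 6 of these 10 genes lay above every clean air mouse (Ccrn4l, Bcor, Ccdc109b, Homer1, Nfatc1 and arg1). The other 4 overlapped clean air. Among them, Banp, a nuclear matrix-associated factor, was lower at 30 min than in any clean air mouse, with 7.51, 8.71 and 9.03 RPKM beside 10.7, 10.7 and 14.4 RPKM, and stood at 18.4, 13.5 and 16.9 RPKM at 120 min (log2 change 0.90 ± 0.18, adjusted p = 0.392). Dhrs13, a dehydrogenase, was also below clean air at 30 min, with 1.33, 8.98 and 8.78 RPKM, and had 13.1, 16.1 and 16.4 RPKM at 120 min (log2 change 1.52 ± 0.52, adjusted p = 0.999). Without 30 min mouse 1, which had the 1.33 RPKM, the log2 change was 0.74. Slc11a2, a transporter of iron, had 9.63, 10.2 and 8.63 RPKM and then 15.9, 15.7 and 19.2 RPKM (log2 change 0.80 ± 0.26). Sox18, a factor of blood vessel endothelium, had 7.97, 4.18 and 6.29 RPKM and then 9.94, 8.73 and 16.6 RPKM (log2 change 0.87 ± 0.32).

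**Figure D4:**
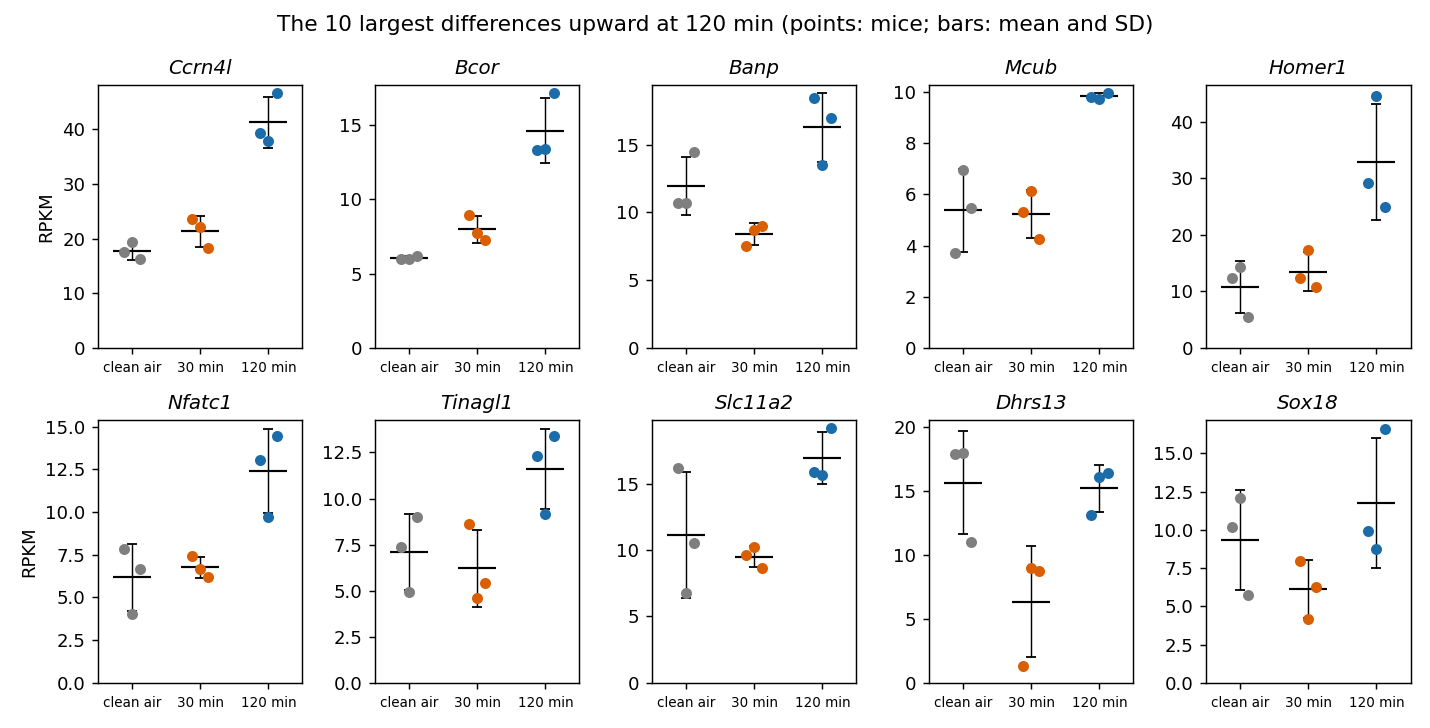
RPKM (vertical axes, linear and starting at 0) of the 10 genes with the largest non-overlapping differences upward at 120 min, in 3 mice each of clean air, 30 min and 120 min, with bars for the mean and SD. Mcub is the current name of Ccdc109b and Tinagl1 that of the row listed as arg1. The 120 min points lie above all clean air points for Ccrn4l, Bcor, Mcub, Homer1, Nfatc1 and Tinagl1.

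Activity-regulated effector genes lay on both sides. Of 28 tested members, 2 fell (Arc and Cyr61), and the groups did not overlap for 7 lower and 8 higher members, with a list median of -0.01. Those members were 25% and 28.6% of the list, beside 5.66% lower and 4.99% higher over all genes tested. The higher ones included, besides Ccrn4l, Bcor and Homer1, several genes of secreted and extracellular proteins. Pcsk1, a protease that matures neuropeptides, was at 8.22, 10.2 and 8.78 RPKM and then at 16.6, 12.5 and 12.8 RPKM (log2 change 0.59 ± 0.19, adjusted p = 0.999). Acan, the core protein of perineuronal nets, was at 4.18, 4.23 and 3.90 RPKM and then at 6.50, 5.85 and 6.00 RPKM (log2 change 0.52 ± 0.18, adjusted p = 0.999). Bdnf, the neurotrophin, was low in all mice, with 0.94, 1.34 and 1.41 RPKM and then 1.17, 1.69 and 1.93 RPKM, and the groups overlapped (log2 change 0.27 ± 0.28).

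Further effector genes are named here after their values were seen. Nptx2, a secreted pentraxin that clusters AMPA receptors, was at 43.5, 39.1 and 45.4 RPKM and then at 57.8, 48.0 and 71.0 RPKM (log2 change 0.45 ± 0.19). Inhba, a subunit of activin, had 5.84, 5.67 and 5.39 RPKM and then 8.34, 7.74 and 6.88 RPKM (log2 change 0.41 ± 0.18), and clean air mice had 6.38 to 8.85 RPKM, so that its 120 min values were no higher than unstimulated ones. On the lower side, Gadd45g and Gadd45b, which respond to stress and take part in DNA demethylation, had log2 changes of -0.66 ± 0.22 and -0.44 ± 0.25. None of these 4 genes passed the threshold (adjusted p = 0.999 each).

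Feedback on MAP kinase signalling was represented by 17 tested genes, of which Dusp1 alone fell, 3 were lower without overlap and 1 was higher. The shares were 17.6% lower and 5.88% higher, beside 5.66% and 4.99% over all genes tested. The median was -0.04. Dusp6 and Dusp5, phosphatases of ERK named after their values were seen, were the other 2 lower members. Dusp6 had 21.9, 20.97 and 21.2 RPKM and then 13.2, 14.1 and 15.5 RPKM (log2 change -0.57 ± 0.16), and Dusp5 had a log2 change of -0.45 ± 0.16. Dusp6 and Dusp5 at 120 min were each still above all clean air mice. Spred2, listed as Spred-2, an inhibitor of Ras signalling, was the higher one, at 27.6, 27.2 and 26.7 RPKM and then 40.1, 42.5 and 46.5 RPKM (log2 change 0.65 ± 0.20, adjusted p = 0.999).

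Among 14 activity-regulated kinases, 2 were lower and 3 higher without overlap, and none passed. Over all genes tested, 5.66% were lower and 4.99% higher without overlap. Plk2, which weakens overactive synapses, had 29.9, 37.7 and 38.4 RPKM and then 23.8, 22.6 and 16.1 RPKM (log2 change -0.76 ± 0.20, adjusted p = 0.999). The salt-inducible kinases, which restrain CREB coactivators, had values of opposite direction and were named after these were seen. Sik1, listed as Snf1lk, had 30.2, 29.7 and 29.1 RPKM and then 16.4, 20.2 and 18.5 RPKM (log2 change -0.68 ± 0.20), while Sik2, listed as Snf1lk2, had 4.90, 3.39 and 5.09 RPKM and then 8.53, 6.68 and 7.94 RPKM (log2 change 0.74 ± 0.20). The difference between these 2 kinases was not tested.

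The mRNA decay list had 7 lower and 1 higher member without overlap, of 34 tested, while the list median was 0.01. That is 20.6% lower and 2.94% higher, beside 5.66% and 4.99% over all genes tested. Btg2 passed, and the higher one was Ccrn4l, which the list holds because its protein was once described as a deadenylase. Zfp36, whose protein binds AU-rich elements and speeds decay, was at 10.96, 6.54 and 8.83 RPKM and then at 1.79, 4.76 and 5.11 RPKM (log2 change -1.16 ± 0.33, adjusted p = 0.999). Tob1 and Tob2, which like Btg2 recruit deadenylases, were named after their values were seen. Tob1 had 41.6, 45.3 and 57.6 RPKM and then 26.8, 30.4 and 31.5 RPKM (log2 change -0.68 ± 0.16, adjusted p = 0.822), a range that overlapped clean air. Tob2 had a log2 change of -0.71 ± 0.23.

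The remaining immediate-early nuclear factors held 22 tested genes, of which 3 fell (Npas4, Ier2 and Btg2). A further 3 were lower and 2 higher without overlap, and the median was -0.22. With the 3 that fell, 27.3% of the list was lower and 9.09% higher without overlap, beside 5.66% and 4.99% of all genes tested. The 13 Kruppel-like factors, zinc finger regulators of growth and differentiation, had 1 lower and 3 higher, with a median of 0.17. Klf5 was at 1.43, 1.99 and 1.30 RPKM and then at 2.30, 2.79 and 2.56 RPKM (log2 change 0.57 ± 0.27, adjusted p = 0.999), and clean air mice reached 2.16 RPKM.

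In the circadian clock list, 3 of 18 tested genes were lower and 2 higher without overlap, and none passed. The shares over all genes tested were 5.66% lower and 4.99% higher. Per2, a core repressor of the clock, had 5.47, 5.65 and 4.65 RPKM and then 9.13, 9.17 and 7.46 RPKM (log2 change 0.66 ± 0.17, adjusted p = 0.999). Ciart, listed as Gm129, another clock repressor, had 5.42, 7.85 and 7.5 RPKM and then 3.57, 3.33 and 4.45 RPKM (log2 change -0.79 ± 0.28, adjusted p = 0.999). The time of day at which mice of each group were taken is not given in the labels, so a clock difference and the interval after odor cannot be told apart.

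Genes responsive to glucocorticoids, the stress hormones of the adrenal gland, gave 3 higher and 0 lower of 23 tested, with a median of 0.14. For this list and the 2 stress lists below, the shares over all genes tested were 4.99% higher and 5.66% lower. Map3k6, a kinase, was at 1.69, 1.2 and 1.2 RPKM and then at 2.66, 3.59 and 3.25 RPKM (log2 change 0.98 ± 0.27, adjusted p = 0.999). Zbtb16, a zinc finger repressor, was at 6.86, 4.13 and 4.90 RPKM and then at 11.6, 8.02 and 7.47 RPKM (log2 change 0.72 ± 0.31). For both genes the clean air values reached into the 120 min range. The 22 heat shock genes had 2 lower and 1 higher, and the 21 genes of endoplasmic reticulum stress had 1 lower, Ppp1r15a, listed as Myd116, a phosphatase subunit that restarts translation, with 20.98, 14.95 and 21.7 RPKM and then 8.13, 14.3 and 10.8 RPKM (log2 change -0.78 ± 0.23).

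In the Notch and Wnt list, 1 of 29 tested genes was lower and 2 were higher without overlap. These are 3.45% and 6.90%, near the 5.66% lower and 4.99% higher over all genes tested. Hes5, a target of Notch that keeps progenitors undifferentiated, had 18.6, 17.6 and 19.4 RPKM at 30 min and 28.2, 30.8 and 36.4 RPKM at 120 min (log2 change 0.76 ± 0.17, adjusted p = 0.714). The clean air mice had 27.9 to 39.7 RPKM, so that Hes5 was low at 30 min and within the unstimulated range at 120 min.

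Receptors and channels were more often higher than lower without overlap, though none passed the test. Over all genes tested, 4.99% were higher and 5.66% lower without overlap. Of 36 glutamate receptor and postsynaptic scaffold genes, 7 were higher and 0 lower, with a median of 0.10. Grm4, a presynaptic metabotropic glutamate receptor, had 43.3, 36.0 and 39.6 RPKM and then 66.9, 49.3 and 62.9 RPKM (log2 change 0.58 ± 0.18, adjusted p = 0.999). Its clean air values of 44.5, 42.2 and 58.1 RPKM overlapped those of both times. Sodium, calcium, HCN and TRP channels gave 8 higher and 0 lower of 46, with a median of 0.13. Hcn4, a pacemaker channel, had 12.8, 11.3 and 11.2 RPKM and then 16.4, 15.7 and 18.8 RPKM (log2 change 0.51 ± 0.16). Potassium channels gave 10 higher and 1 lower of 61. Kcng2, a modifier of Kv2 channels, had a log2 change of 0.65 ± 0.23, and its clean air values of 4.04 to 6.85 RPKM overlapped its 120 min values of 3.78 to 5 RPKM. GABA and glycine receptors gave 3 higher and 0 lower of 16, with a median of -0.04. Of their fitted changes, 10 were below 0 and 6 above.

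No gene of the adhesion, guidance, vesicle, chromatin and cAMP lists was called. Their counts without overlap stand beside 4.99% higher and 5.66% lower over all genes tested. Cadherins and protocadherins gave 8 higher and 3 lower of 50, and axon guidance genes 9 higher and 1 lower of 62, each with a median of 0.11. Pcdh1, a protocadherin, was at 65.0, 78.9 and 67.1 RPKM and then at 93.2, 105 and 117 RPKM (log2 change 0.58 ± 0.23, adjusted p = 0.999). Synaptic vesicle genes gave 3 higher and 0 lower of 36, among them Pclo and Bsn, the large scaffolds of the presynaptic active zone. Pclo was at 5.87, 7.20 and 6.17 RPKM and then at 8.15, 10.8 and 10.04 RPKM (log2 change 0.55 ± 0.26), and Bsn at 32.0, 31.1 and 33.6 RPKM and then at 41.6, 45.2 and 45.2 RPKM (log2 change 0.44 ± 0.21). Chromatin modifiers and remodelers gave 11 higher and 4 lower of 99, with a median of 0.00. In the cAMP and CREB pathway, 4 were higher and 0 lower of 30, among them Crebbp, a histone acetyltransferase that CREB recruits, at 25.5, 28.9 and 23.9 RPKM and then 29.4, 36.7 and 37.6 RPKM (log2 change 0.39 ± 0.18).

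These counts moved with transcript length. When the tested genes with an annotated mRNA were divided into 4 equal parts by length, the share that was higher at 120 min without overlap was 1.92% in the shortest part (198 to 1983 nt), 3.36% in the next, 5.65% in the third and 9.34% in the longest (4647 to 123179 nt). The share that was lower went the other way, from 7.77% to 6.54%, 5.10% and 3.59%. Of the glutamate receptor and scaffold genes 72.2% were in the longest part, of the axon guidance genes 54.8%, of the sodium, calcium, HCN and TRP channels 23 of 46 and of the potassium channels 32.2%. Of the chromatin genes 55.7% were. The higher genes without overlap lay in the longest part for 10 of the 10 chromatin genes with a known length, 5 of 7 glutamate receptor and scaffold genes, 4 of 8 sodium, calcium, HCN and TRP channels, 4 of 9 axon guidance genes and 3 of 10 potassium channels. Among activity-regulated effectors, with 25% of the list in the longest part, 6 of the 8 higher members were there. Counted alike, it was 6 of 8 cadherins and protocadherins, 3 of 3 GABA and glycine receptors and 3 of 4 cAMP and CREB genes. It was 2 of 3 synaptic vesicle genes, 1 of 3 glucocorticoid-responsive genes and 0 of 3 Kruppel-like factors. Collagens, laminins and integrins, with 66.0% in the longest part, had 1 higher and 4 lower members. The part of transcript length in the counts of these lists was not tested.

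**Figure D5:**
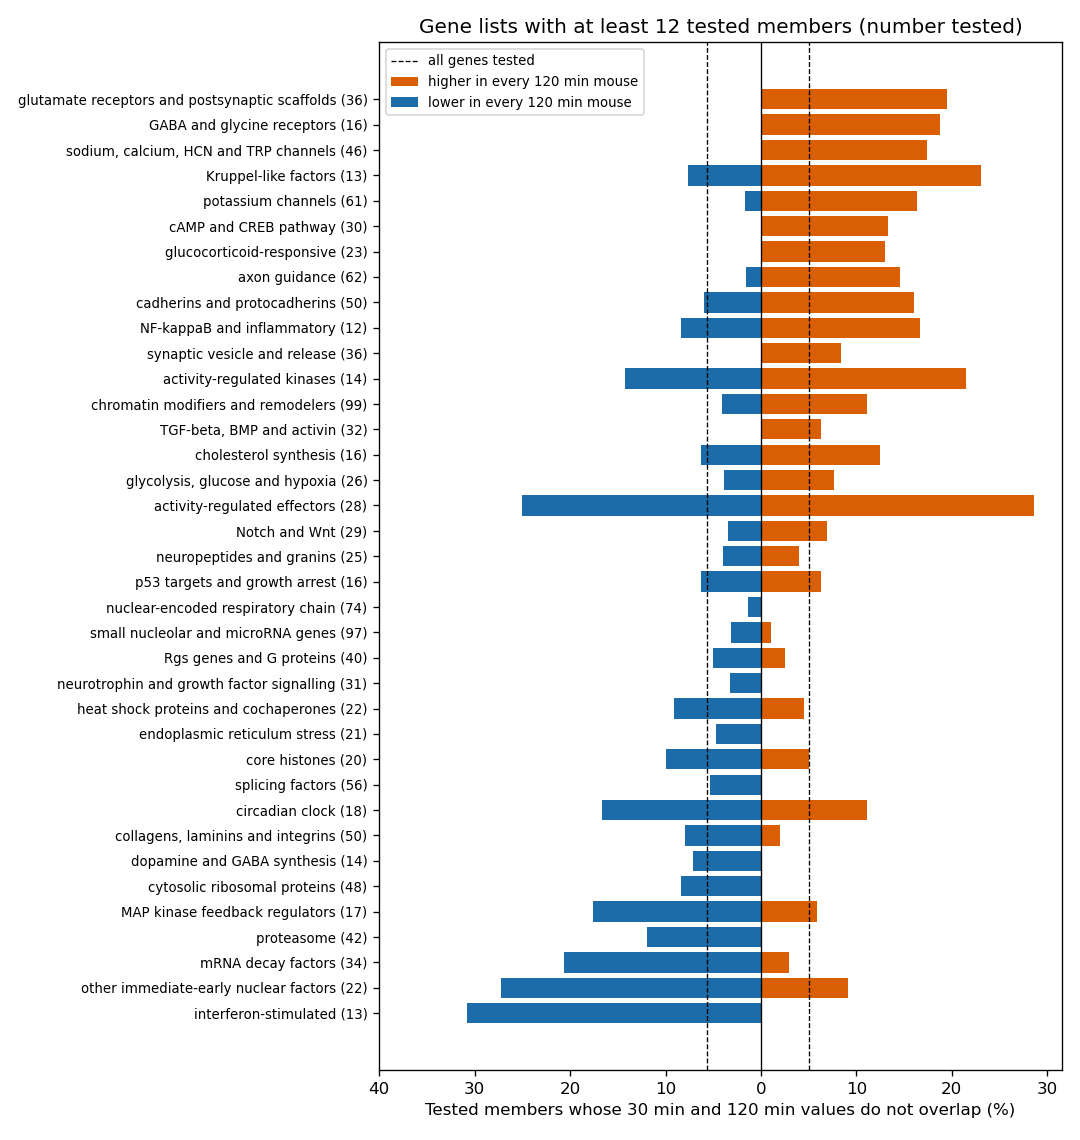
Share of the tested members of each gene list whose RPKM did not overlap between the 30 min and 120 min mice, higher at 120 min to the right (orange) and lower to the left (blue), for lists with at least 12 tested members, whose number is in parentheses. Dashed lines mark the shares over all genes tested, 4.99% higher and 5.66% lower.

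Lists of short, abundant transcripts of basic cell machinery had lower but no higher members without overlap. Of 42 proteasome genes, 5 were lower and 0 higher without overlap (median -0.17), and of 48 cytosolic ribosomal protein genes, 4 were lower and 0 higher (median -0.14). For 74 nuclear-encoded respiratory chain genes the counts were 1 lower and 0 higher (median -0.08). Over all genes tested the shares were 5.66% lower and 4.99% higher, beside 11.9% lower for proteasome, 8.33% for ribosomal and 1.35% for respiratory genes. The median mRNA length was 1541 nt in the proteasome list, 930 nt in the ribosomal list and 760 nt in the respiratory list, and its part in these counts was not tested. Psme2, a subunit of the interferon-induced proteasome activator, had 7.10, 4.85 and 4.31 RPKM and then 2.54, 2.42 and 2.92 RPKM (log2 change -0.90 ± 0.24, adjusted p = 0.999). Rps18 had 13.1, 11.6 and 13.6 RPKM and then 9, 6.34 and 9.01 RPKM (log2 change -0.63 ± 0.20). Ribosomal protein genes have many near-identical pseudogenes, and no source used here says how the authors assigned shared reads, so their values are uncertain.

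The other pathway lists are given beside 10.6% of all genes tested without overlap in either direction. Splicing factors 3 lower and 0 higher of 56, and core histones 2 lower and 1 higher of 20. Rgs genes and G proteins gave 2 lower and 1 higher of 40, and growth factor signalling 1 lower and 0 higher of 31. Neuropeptides and granins gave 1 lower and 1 higher of 25, and dopamine and GABA synthesis 1 lower and 0 higher of 14. The TGF-beta, BMP and activin list gave 0 lower and 2 higher of 32, cholesterol synthesis 1 lower and 2 higher of 16, and glycolysis, glucose and hypoxia genes 1 lower and 2 higher of 26. None of the 9 genes of the mitochondrial genome was without overlap.

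The interferon-stimulated list had 4 lower and 0 higher members without overlap of 13 tested, beside 5.66% lower and 4.99% higher over all genes tested. All 13 fitted changes were negative, with a median of -0.49. Irf1, a transcription factor of the interferon response, had 7.12, 5.54 and 7.21 RPKM and then 3.62, 3.87 and 2.61 RPKM (log2 change -0.89 ± 0.30, adjusted p = 0.999). Bst2, a membrane protein that tethers budding viruses, had 6.19, 4.50 and 5.88 RPKM and then 2.60, 4.38 and 2.62 RPKM (log2 change -0.73 ± 0.23). The summed RPKM of the list was 74.3 to 79.2 at 30 min and 46.7 to 63.3 at 120 min, while clean air mice spanned 36.7 to 73.5. None of the 13 passed the threshold. In the list of NF-kappaB and inflammatory genes, 1 of 12 was lower and 2 were higher, and its members Relb and Vcam1 had log2 changes of 0.86 ± 0.27 and -0.86 ± 0.40.

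Markers of cell types showed no called gene in any list. Red blood cell markers had the lowest median of all lists, -0.84 over 3 tested members, with 2 of the 5 members found at 0 in all libraries. Alas2, the first enzyme of heme synthesis in red cells, had 4.74, 3.90 and 2.73 RPKM and then 0.91, 1.63 and 1.03 RPKM (log2 change -1.34 ± 0.35, adjusted p = 0.999). The summed red blood cell level was 175 to 210 RPKM at 30 min, 52.3 to 197 RPKM at 120 min and 42.9 to 162 RPKM in clean air, so that the groups of odor mice overlapped. The part of blood in the other results was not tested.

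Of 8 mitral and tufted cell markers, 2 were higher and 0 lower without overlap, beside 4.99% higher and 5.66% lower over all genes tested. Their summed level was 1323 to 1528 RPKM at 30 min and 1464 to 1497 RPKM at 120 min. Tbx21, a transcription factor of these cells, had 16.9, 15.9 and 20.6 RPKM and then 26.4, 23.1 and 25.4 RPKM (log2 change 0.48 ± 0.16, adjusted p = 0.999). Omp, the marker of mature olfactory sensory neurons, whose axons end in the bulb, had 109, 107 and 110 RPKM and then 62.3, 104 and 90.4 RPKM (log2 change -0.37 ± 0.20). Of 8 astrocyte markers 2 were lower, of 9 microglia markers 1, and the summed levels of both lists overlapped between the times. Granule cell, dopaminergic, neuroblast, ensheathing cell, oligodendrocyte and endothelial markers had no member without overlap.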

How the data were processed

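Polyadenylated RNA of olfactory bulbs from 9 mice, 3 per group, was sequenced from paired ends, per the labels' protocols. The authors deposited 1 table of RPKM, with 27497 Ensembl genes in rows. Reads were aligned with Bowtie to build mm9, per the submitters' processing notes, while the version, annotation, counting and strandedness are named in none of the sources used here. Of the identifiers, 7969 were at 0 in all 9 libraries. Mouse numbers are those of the sample titles.

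Values were used as deposited. The 12780 genes averaging at least 1 RPKM were tested on log2(RPKM + 0.5), a scale that understates the change of low genes, with the moderated linear models of limma 3.58.1 (R 4.3.3), including a mean-variance trend. The fit held all 9 libraries, with 6 residual degrees of freedom, and tests were two-sided. A gene was called, and is said to have fallen or risen, at a Benjamini-Hochberg adjusted p under 0.05 over all genes tested. Errors of log2 changes are standard errors and errors of means are SD. Folds come from the fit and not from the mean RPKM. Groups do not overlap where every mouse of 1 group lies above every mouse of the other. The script was tested on simulated data.

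Depth was recovered from 472 RNAs under 200 nt, whose RPKM are whole multiples of 1 read once 34 nt are taken off their length. Within 0.05, 84.5% to 94.3% of the low multiples per library were whole, against 28.8% to 31.9% with the full length. The sources used here do not say whether a counted unit was a read or a pair.

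Genes named are all called genes, a panel of 18 activity-regulated genes, the 10 largest non-overlapping differences each way with a mean of at least 5 RPKM, and for each list the 2 most abundant members and the 2 with the largest change; exceptions are marked. The 41 pathway and 15 marker lists are described by counts and medians, with no set test. Members, lists and pairs were chosen with earlier results of these data known. GENCODE M21 and RefSeq GRCm38.p6 supplied names, lengths, 3′ UTRs and promoters through gene identifiers and symbols, and no coordinate was carried over from mm9.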

Additional observations from a re-analysis of the deposited data

How the results depend on the processing

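Under 19 alternatives (pseudocounts 0.1 and 1, no filter or a mean of at least 5 RPKM, the 6 libraries of the compared groups alone, quantile or median scaling, no trend, library weights, a replicate block, and each of the 9 mice left out) 7 to 12 genes were called. Leaving out 1 mouse gave 7 to 10 calls, all of them lower and 0 higher. With library weights 1 gene was higher, Ccrn4l (log2 change 0.99, adjusted p = 0.0338, against 0.0338 to 1 over all its alternatives). Nr4a1 gained a call in 3 settings. Cyr61 lost its call with no filter, the 6 libraries, the block, either scaling and no trend, and without any single mouse other than 30 min mouse 2. Egr1 lost it with a pseudocount of 0.1, no filter, either scaling and no trend, and without any single mouse other than clean air mouse 3. Without 120 min mouse 2, Snord37 was called lower (log2 change -2.90, limma adjusted p = 0.00612), from values that stand for few reads. Leaving out single mice, the log2 change of Nr4a3 ranged from -0.0748 (without 30 min mouse 3) to 0.18 and was below 0 also without 30 min mouse 1 (-0.0721) and without 120 min mouse 1 (-0.06). That of Nr4a2 ranged from -0.24 to 0.0462, the value without 120 min mouse 1. Of 1563 values of single genes and pairs, 1526 kept direction and side of the threshold, and 1053 of 1060 list medians moved by less than their spread. The causes were not tested.

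With mouse number as a replicate block, 10 genes were called, with Cyr61 lost and Agbl3 added. Deviations of same-numbered 30 min and 120 min mice correlated at 0.32, 0.44 and 0.08 for numbers 1, 2 and 3. Same-numbered pairs with clean air mice correlated at 0.09 to 0.39. Each of the 6 mice of the compared groups correlated best with its own number in the other group, which comes from the data and not the design. Library depth also differed by number. At 30 min and 120 min it was 8.82 and 9.86 megareads for number 1, 28.8 and 24.1 for number 2, and 17.4 and 7.15 for number 3. The part of depth in these correlations was not tested. The correlation for number 3 was not over 0.1 and the labels give no shared cage or day. The block was therefore kept as an alternative, and whether the numbers pair mice was not settled.

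With 3 mice per group, p-values measure the spread between these mice. Floors cover counting error only, and with 120 min mouse 3 at 7.15 megareads, genes near 1 RPKM rest on few reads there.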

Other observations

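Some genes outside the naming rule ranked high by p and are given as values, chosen after these were seen. Ddx5, an RNA helicase of splicing and microRNA processing, had 54.5, 38.3 and 55.2 RPKM in the 30 min mice and 27.7, 23.1 and 18.2 RPKM in the 120 min mice, with 48.2, 53.2 and 49.1 RPKM in clean air (log2 change from 30 min to 120 min -1.09 ± 0.20, limma adjusted p = 0.202). All 120 min mice lay below all other mice for Ddx5. Cecr6 had 11.5, 9.10 and 8.44 RPKM at 30 min and 17.9, 16.0 and 17.3 RPKM at 120 min, beside 11.6 to 14.2 RPKM in clean air (log2 change 0.80 ± 0.17, adjusted p = 0.433). Mafg, a small Maf factor, had the largest upward change of the immediate-early lists, 1.51 ± 0.65 on the log2 scale, with overlapping groups of 22.7, 8.10 and 3.83 RPKM and 60.9, 16.6 and 18.6 RPKM.

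Snord37, a small nucleolar RNA of the list of small RNA genes, had 3.78, 2.31 and 3.83 RPKM at 30 min and was listed at 0 in 120 min mice 1 and 3, with 1.38 RPKM in mouse 2. Clean air mice had 9.53, 6.01 and 7.81 RPKM. The depth of 120 min mice 1 and 3 was the lower in that group, at 9.86 and 7.15 megareads, while 30 min mouse 1 had 8.82. At the recovered depths the values of so short an RNA stand for few reads in every mouse. The difference of Snord37 therefore rests on few reads.

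Slc2a1, the glucose transporter of brain vessels and astrocytes, had 87.3, 66.2 and 71.1 RPKM at 30 min and 103, 104 and 135 RPKM at 120 min, with clean air mice at 57.2 to 90.1 RPKM (log2 change 0.60 ± 0.20, limma adjusted p = 0.999). Its 120 min values were above all 6 other mice.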
